A study of Mus musculus with 11 samples.

Results

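Aldo-keto reductases are small soluble enzymes that use NADPH or NADH to turn aldehydes and ketones into alcohols, and in the liver their substrates range from glucose and glucuronate to lipid aldehydes, steroids and bile acid precursors. The AKR1B branch reduces sugars and lipid aldehydes, the AKR1C branch is made up of hydroxysteroid and xenobiotic dehydrogenases, and AKR1A1 and AKR7A5 are broad-range aldehyde reductases. Akr1b7, first described as a protein of the mouse vas deferens, is also known from adrenal cortex and intestine, reduces aldehydes made by lipid peroxidation, and has been described elsewhere as a gene that the bile acid receptor FXR can switch on.

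The 10 genes described here (Akr1b7, Akr1b3, Akr1b8, Akr1a1, Akr1c6, Akr1c13, Akr1c14, Akr1c19, Akr1c20 and Akr7a5) were taken by gene symbol from 46603 gene rows of the RNA-seq count table, and Akr1b7 was set against its 9 relatives. They were chosen because of the INT-767 contrast in these same livers, in which Akr1b7 was already known to stand among the largest rises, so their differences between the groups are given as a description, without p-values. A further 10 genes of the superfamily (Akr1b10, Akr1c12, Akr1c18, Akr1c21, Akr1cl, Akr1d1, Akr1e1, Kcnab1, Kcnab2 and Kcnab3) were listed alongside for comparison. Of the 20, 16 had enough counts to be tested, all 10 members among them.

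The libraries came from whole-liver RNA of 11 leptin-deficient ob/ob males that from 5 to 6 weeks of age ate the AMLN diet, whose fat, fructose and cholesterol bring on steatohepatitis. After 15 weeks of diet, 4 mice received INT-767, a semi-synthetic bile acid that activates both FXR and the membrane receptor TGR5, by daily gavage of 10 mg/kg over 8 weeks. The other 7 mice received the carboxymethyl cellulose vehicle alone on the same schedule. Leptin deficiency, diet and a liver biopsy before dosing were shared by both groups, and lean or chow-fed animals were not analysed here. Total counts ran from 7966963 to 15295230 in the vehicle libraries and from 7381211 to 16022459 in the INT-767 libraries. In bulk liver, fewer cells of a type and less RNA per cell cannot be told apart.

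The family lies in a few clusters of the mouse genome (GRCm38). Akr1b3, Akr1b8, Akr1b10 and Akr1b7 follow each other within 120.7 kb of chromosome 6, and Akr1b7 itself spans chr6:34412334-34423142 on the plus strand. The 5 Akr1c members share a stretch of 560.2 kb on chromosome 13 with Akr1c12, Akr1c18, Akr1c21 and Akr1e1, while Akr1a1 and Akr7a5 are separate genes on chromosome 4. Akr1d1 is on chromosome 6 as well, at chr6:37530173-37568815, outside the Akr1b cluster. By coding sequence, Akr1b7 was closest to Akr1b10 (89.2% identical bases) and Akr1b8 (85.7%), its neighbours in the cluster, then to Akr1b3 (73.8%), and no other superfamily gene reached 70%. Akr1c13 and Akr1c12 were 96.2% identical and Akr1c6 and Akr1c20 92.3% identical, so the Akr1c genes hold closer pairs than the Akr1b genes do.

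Sequence likeness bears on how counts can be split between genes. None of the 75-base windows of Akr1b7 transcripts occurred on the same strand of another gene, but 5.3% occurred on the opposite strand, where the annotated gene Gm13857 covers 27.2% of the exon bases of Akr1b7. Gm13857 held 1 count over all 11 libraries, in INT-767 mouse 4. Among the other members, 14.3% of the windows of Akr1c13 were shared on the same strand with Akr1c12, 8.3% of those of Akr1b3 with other genes, chiefly Gm6644, 5.1% of those of Akr1c14 with Gm18857 and 3.7% of those of Akr1c19 with Marcksl1-ps4. Akr1b3 also shared 11.2% of its windows with genes on the opposite strand, and Akr1b8 shared 0.42% with Akr1b10 on the same strand. These are shares of transcript sequence and not of reads, and how far they affect the counts was not tested. The sources used here do not give the strand setting of the counting.

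The promoters of the 3 neighbouring genes in the Akr1b cluster are shown because the genes next to each other behaved differently in the livers. FXR and related nuclear receptors bind hexamers like AGGTCA, usually in pairs. The stretch from 250 to 31 bases before each RefSeq start (GRCm38.p6, plus strand) is given in lower case, with capitals where AGGTCA or its reverse complement TGACCT occurs.
Akr1b7, chr6:34412112-34412331: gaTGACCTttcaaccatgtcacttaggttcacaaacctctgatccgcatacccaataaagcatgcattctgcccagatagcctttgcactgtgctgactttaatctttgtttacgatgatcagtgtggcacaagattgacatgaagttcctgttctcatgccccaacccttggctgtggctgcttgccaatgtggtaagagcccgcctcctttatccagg
Akr1b10, chr6:34383997-34384216: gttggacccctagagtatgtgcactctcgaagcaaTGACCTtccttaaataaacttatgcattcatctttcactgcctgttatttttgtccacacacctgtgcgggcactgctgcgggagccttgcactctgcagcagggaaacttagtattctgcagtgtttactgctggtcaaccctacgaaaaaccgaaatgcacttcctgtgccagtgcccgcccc
Akr1b8, chr6:34353896-34354115: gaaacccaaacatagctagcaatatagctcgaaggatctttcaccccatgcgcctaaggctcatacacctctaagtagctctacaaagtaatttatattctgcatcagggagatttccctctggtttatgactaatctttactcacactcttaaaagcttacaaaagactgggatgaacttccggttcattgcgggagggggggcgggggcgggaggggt

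The hexamer, searched on both strands, was in the window of Akr1b7 and of Akr1b10 and not in that of Akr1b8. Of the 8 members with a promoter sequence, 2 held it (Akr1b7 and Akr7a5), and it was in 12.5% of 32851 mouse promoters searched over the same stretch. Akr1d1 held it at 2 positions. No superfamily promoter searched held 2 such hexamers facing each other 1 base apart, an arrangement found in 1 of the 32851. A match is a description of the letters, and no binding was measured here. In the best alignment of these windows, Akr1b7 matched Akr1b10 at 65.8% and Akr1b8 at 64.5% of aligned bases. Those values were no higher than for Akr genes outside the cluster, which ran from 52.0% (Akr1c21) to 66.3% (Akr1c19). The windows of Akr1c13 and Akr1c12 matched at 95.8%.

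Before the contrast, the vehicle livers show where each gene stands in the family. Levels between genes are compared as TMM-normalised CPM, counts scaled to a common library size, per kb of annotated exon, over the 7 vehicle livers. Akr1c6, a liver 17-beta-hydroxysteroid dehydrogenase, was the most abundant member at a mean level of 453 CPM per kb, followed by Akr1a1, which reduces glucuronate on the path to ascorbate, at 158 CPM per kb. Akr1c14, a 3-alpha-hydroxysteroid dehydrogenase (84.5 CPM per kb), Akr7a5, which reduces aflatoxin dialdehyde and succinic semialdehyde (67.7), Akr1c20 (61.5) and Akr1c13 (46.5) formed a middle group. Akr1c19, an NAD-dependent dehydrogenase of xenobiotic alcohols, stood well below them at 8.11 CPM per kb. The Akr1b genes came last, with mean levels of 2.62 CPM per kb for Akr1b8, a lipid-aldehyde reductase, 0.858 CPM per kb for Akr1b3, the aldose reductase of the polyol pathway, and 0.427 CPM per kb for Akr1b7.

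Neighbours in that order were compared within each mouse by an exact two-sided sign-flip test on log2 levels (smallest p possible 0.0156, 9 comparisons, Benjamini-Hochberg adjusted). The order was taken from these same livers, so the pairs and their direction were not set in advance. Akr1c14 and Akr7a5 were not separated (mean log2 difference 0.24 ± 0.63 SD, n = 7, exact adjusted p = 0.391), and neither were Akr7a5 and Akr1c20 (0.22 ± 0.63, exact adjusted p = 0.391). Of the remaining pairs, 6 were ordered alike in 7 of 7 mice, each with an exact adjusted p = 0.0234. Akr1b3 lay above Akr1b7 by a log2 difference of 0.77 ± 0.67, in 6 of 7 mice (exact adjusted p = 0.0402). These log2 levels include a prior count, added before the log is taken, which narrows differences for a gene with as few counts as Akr1b7. In CPM per kb without it, Akr1b3 was above Akr1b7 in every vehicle liver, most narrowly in mouse 1 (0.800 against 0.692 CPM per kb). Akr1b8 lay above Akr1b3 only per kb, because 8.384 kb of exon are annotated for Akr1b3 and 1.499 kb for Akr1b8. In CPM alone, Akr1b3 (7.19 ± 0.964 SD) was above Akr1b8 (3.92 ± 0.984).

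Akr1b7 was nearly silent in vehicle livers and was counted in every INT-767 liver at a higher level. The lowest vehicle liver gave 0.125 CPM, the median 0.366 CPM and the highest 0.932 CPM, from 1 to 16 counts a library. In the INT-767 livers, mouse 1 gave 13 CPM (205 counts), mouse 2 10.5 CPM (76 counts), mouse 3 2.39 CPM (17 counts) and mouse 4 1.57 CPM (21 counts). The groups did not overlap, but mice 1 and 2 stood far above mice 3 and 4, which were close to the upper vehicle livers. The group means were 0.547 ± 0.326 CPM (SD, n = 7) and 6.86 ± 5.74 CPM (SD, n = 4). The fitted log2 fold change was 3.62 (SE 0.59), a 12.3-fold difference, and it ranked 7th in size among the 700 genes called higher. Fitted without INT-767 mice 1 and 2, a choice made after seeing the data, the log2 fold change was 1.82 (SE 0.55) and Akr1b7 did not pass the threshold.

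Counting error alone is wide at these levels. As CPM of total counts, without TMM factors, the 21 counts of INT-767 mouse 4 gave 1.36 with an exact 95% interval of 0.840 to 2.07. The 16 counts of vehicle mouse 7 gave 1.05 (interval 0.598 to 1.70), and these 2 intervals overlap. The intervals of INT-767 mouse 1 (11.1 to 14.7) and mouse 2 (6.97 to 11.1) lay above the highest upper bound of any vehicle library, 1.79. They cover counting error only.

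**Figure D1:**
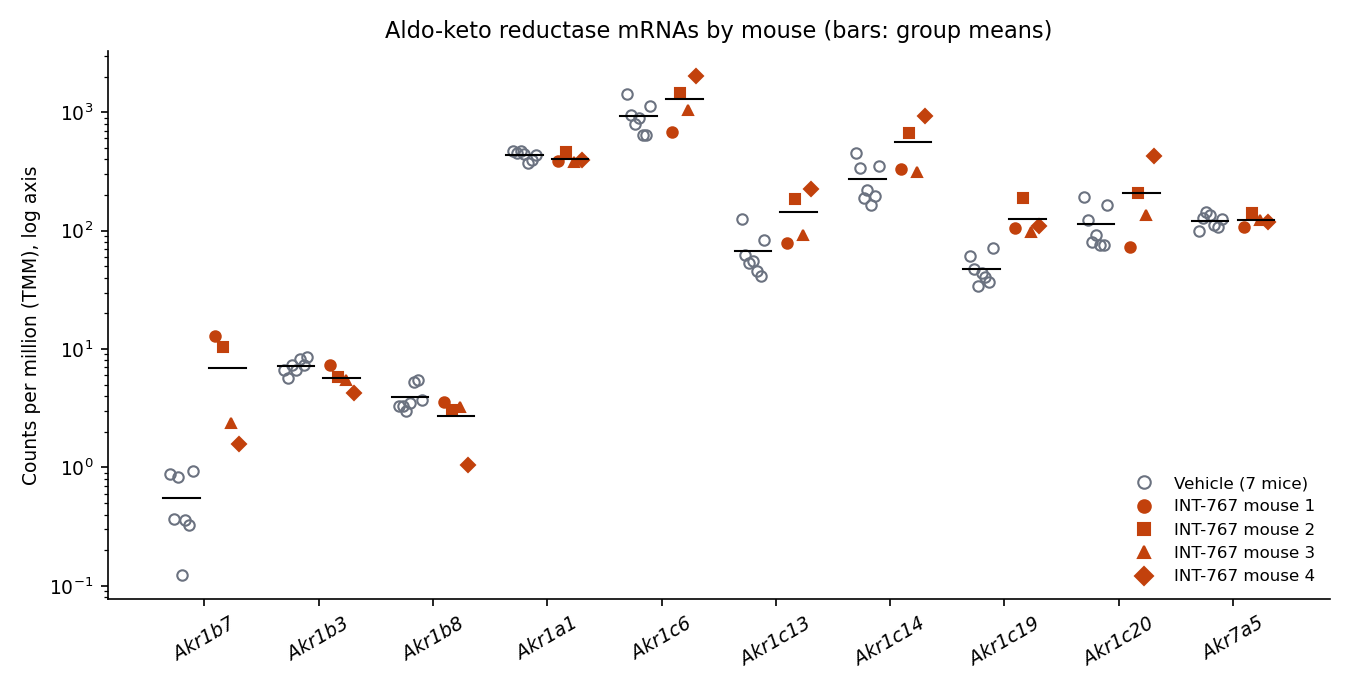
Level of each of the 10 genes in every liver, in TMM-normalised CPM on a log axis, with open grey circles for the 7 vehicle mice, filled symbols for the 4 INT-767 mice and bars at group means. Akr1b7 runs from 0.125 to 0.932 CPM in vehicle and from 1.57 to 13 CPM in INT-767 livers, and Akr1c19 is the other gene whose groups do not overlap.

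Across the family, 2 of the 10 members were called higher (Akr1b7 and Akr1c19) and 0 were called lower by edgeR's quasi-likelihood test at an adjusted p under 0.05. Over all 13880 genes tested, 5.04% were called higher and 4.68% lower. Groups that did not overlap in CPM were found for the same 2 members, higher with INT-767, against 3.87% of all tested genes higher and 3.65% lower. Since the genes were picked on this contrast, nothing is read from these counts. The 9 relatives of Akr1b7 had log2 fold changes from -0.55 to 1.39 with a median of 0.50, so Akr1b7 exceeded the median of its relatives by 3.12 on the log2 scale. That excess was 2.37 without INT-767 mouse 1 and 3.76 without mouse 4. It was 1.07 without INT-767 mice 1 and 2, a choice made after seeing the data. The median over all tested genes was -0.01.

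The closest relatives of Akr1b7 did not share its difference. Akr1b8 gave 3.01, 3.49 and 5.43 CPM as the lowest, median and highest of the vehicle livers, and 3.55, 3.03, 3.23 and 1.05 CPM in INT-767 mice 1 to 4. The groups overlapped, and the log2 fold change was -0.55 (SE 0.31), not called, and -0.27 without INT-767 mouse 4. Akr1b3 gave 5.71, 7.26 and 8.51 CPM in vehicle livers and 7.36, 5.79, 5.48 and 4.26 CPM in INT-767 mice 1 to 4, again with overlap (log2 fold change -0.33, SE 0.19, not called, -0.21 without INT-767 mouse 4 and -0.11 with an offset for GC content and length). Akr1b10, which is outside the 10 genes and closest to Akr1b7 in coding sequence, gave 3.00, 4.53 and 5.95 CPM in vehicle livers and 3.62, 3.45, 4.36 and 3.74 CPM in INT-767 livers (log2 fold change -0.23, SE 0.20, edgeR adjusted p = 0.412). In the mice with the most Akr1b7, none of these 3 genes stood above the vehicle range.

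A ratio within each library sets aside library size. For every 100 counts of Akr1b3, the vehicle livers held between 1.89 and 13.2 counts of Akr1b7 (median 6.41), and the INT-767 livers held 177, 181, 43.6 and 36.8 in mice 1 to 4. For every 100 counts of Akr1b10, the ranges were 2.94 to 21.1 in vehicle and 42.0 to 360 in INT-767 livers. Akr1b7 was the least counted of the 4 Akr1b genes in each vehicle liver, whereas it had more counts than any of the other 3 in INT-767 mice 1 and 2 and more than Akr1b8 in mouse 4.

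**Figure D2:**
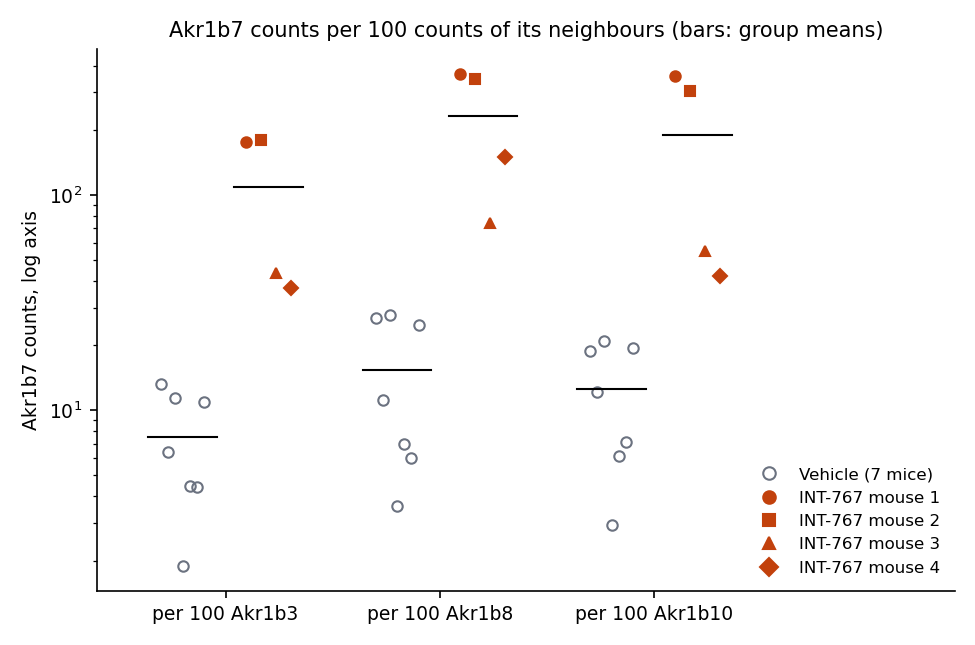
Counts of Akr1b7 per 100 counts of Akr1b3, Akr1b8 and Akr1b10 in each library, on a log axis, with open circles for vehicle mice, filled symbols for INT-767 mice and bars at group means. All 4 INT-767 livers lie above all 7 vehicle livers for each neighbour, and mice 1 and 2 lie near 177 and 181 per 100 counts of Akr1b3.

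The Akr1c genes ordered the INT-767 mice differently from Akr1b7, although mouse 2 was above the vehicle range for Akr1b7 and for each Akr1c member. Akr1c19 was at 33.7, 43.7 and 71.6 CPM as the lowest, median and highest vehicle liver, and at 106, 190, 97.0 and 110 CPM in INT-767 mice 1 to 4. Every INT-767 liver was above every vehicle liver, with mouse 2 the highest (log2 fold change 1.39, SE 0.24, called higher). Akr1c13, a hydroxysteroid and xenobiotic alcohol dehydrogenase, gave 41.1, 55.8 and 124 CPM in vehicle livers and 78.6, 183, 91.3 and 225 CPM in INT-767 mice 1 to 4. The groups overlapped, with vehicle mouse 1 at 124 CPM above INT-767 mice 1 and 3, and vehicle mouse 7 at 83.9 CPM above INT-767 mouse 1 (log2 fold change 1.12, SE 0.34, not called).

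Akr1c14 ranged from 166 to 456 CPM (median 220) in vehicle livers and was at 331, 663, 315 and 920 CPM in INT-767 mice 1 to 4 (log2 fold change 1.03, SE 0.34, not called). Vehicle mice 1, 2 and 7, at 456, 336 and 353 CPM, were above INT-767 mice 1 and 3. Both genes were called higher when vehicle mouse 1, INT-767 mouse 1 or INT-767 mouse 3 was left out, with log2 fold changes between 1.29 and 1.34 for Akr1c13 and of at most 1.23 for Akr1c14. Without INT-767 mouse 4 the log2 fold changes were 0.81 for Akr1c13 and 0.66 for Akr1c14, and with an offset for GC content and length they were 0.78, which was called, and 0.54, which was not. Akr1c20 ranged from 75.4 to 192 CPM (median 92.2) in vehicle livers and was at 72.6, 206, 135 and 425 CPM in INT-767 mice 1 to 4. INT-767 mouse 1 was below the whole vehicle group and mouse 4 far above it (log2 fold change 0.87, SE 0.41, not called), and the log2 fold change was 0.26 without mouse 4 and 0.22 with the same offset. Akr1c6 ranged from 638 to 1413 CPM (median 885) in vehicle livers and was at 676, 1449, 1037 and 2034 CPM in INT-767 mice 1 to 4 (log2 fold change 0.50, SE 0.29, not called, 0.19 without mouse 4 and -0.07 with that offset).

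Summed over the 5 Akr1c members, INT-767 mouse 4 held 3715 CPM, mouse 2 2691, mouse 3 1676 and mouse 1 1265, against 1423 ± 466 CPM (SD, n = 7) in vehicle livers. INT-767 mouse 1, with the most Akr1b7 of all mice, thus had the lowest Akr1c total of its group, below the vehicle mean. INT-767 mouse 4, with the least Akr1b7 of its group, had the highest level of 4 Akr1c genes, namely Akr1c6, Akr1c13, Akr1c14 and Akr1c20.

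The broad aldehyde reductases differed little. Akr1a1 was at 434 ± 36.8 CPM (SD, n = 7) in vehicle and 404 ± 37.6 CPM (SD, n = 4) in INT-767 livers, with overlapping groups (log2 fold change -0.10, SE 0.13, not called). Akr7a5 was at 121 ± 15.8 CPM and 122 ± 14.6 CPM (log2 fold change 0.01, SE 0.14, not called, below 0 in 10 of 25 alternative analyses). Their coefficients of variation among vehicle livers, 8.5% and 13%, were the lowest of the 10 genes, and that of Akr1b7 was the highest at 59.7%.

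**Figure D3:**
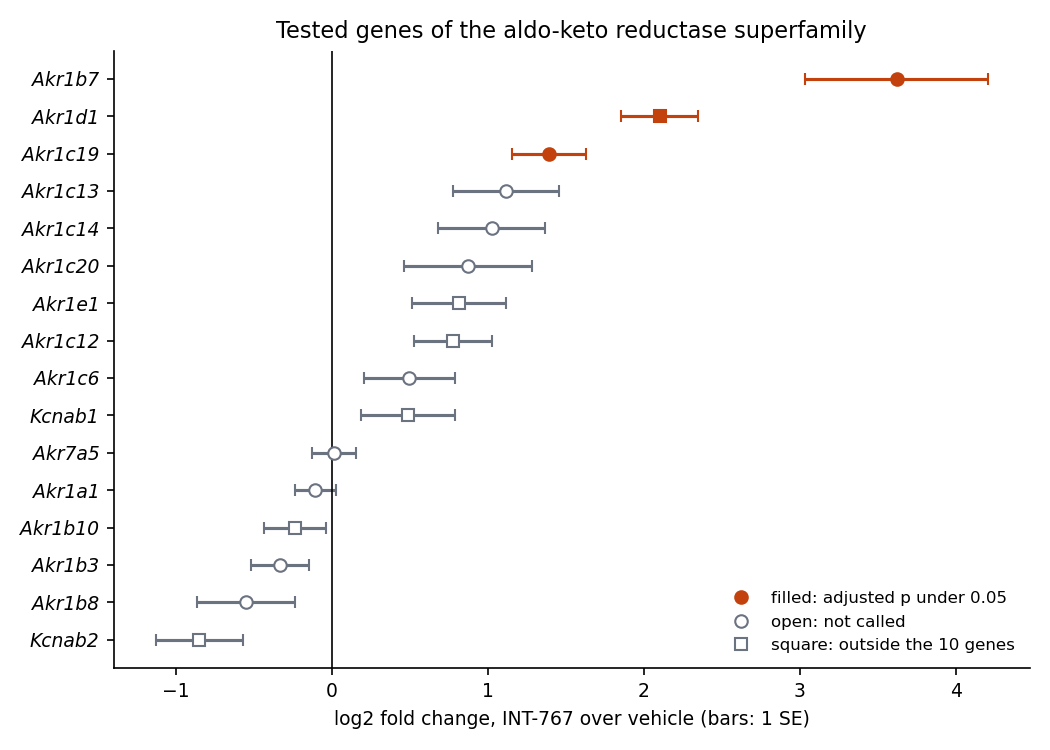
Log2 fold change of INT-767 over vehicle for the 16 tested genes of the superfamily, with bars of 1 SE, circles for the 10 genes and squares for the others, filled where the edgeR adjusted p was under 0.05. Akr1b7 (3.62), Akr1d1 (2.10) and Akr1c19 (1.39) are filled, and the other Akr1b genes lie below 0.

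Among the superfamily genes outside the 10, 1 of 6 tested was called higher and 0 lower, against 5.04% and 4.68% of all tested genes. That gene was Akr1d1, the steroid 5-beta-reductase of bile acid and steroid hormone metabolism. Akr1d1 was at 96.3, 105 and 174 CPM as the lowest, median and highest vehicle liver and at 478, 819, 346 and 525 CPM in INT-767 mice 1 to 4. All 4 INT-767 livers were above all vehicle livers (log2 fold change 2.10, SE 0.25, edgeR adjusted p = 0.00126). Akr1c12, which shares windows with Akr1c13, gave a log2 fold change of 0.78 (SE 0.25, adjusted p = 0.0655). It was called in 4 of 25 alternative analyses, among them those without vehicle mouse 1 or INT-767 mouse 1 (0.42 to 0.93 over all 25). Akr1e1, the 1,5-anhydrofructose reductase that lies beside the Akr1c genes, gave 0.82 (SE 0.30, adjusted p = 0.0919). It was called in 2 of 25 alternatives, among them the one without vehicle mouse 1 (0.55 to 1.02 over all 25).

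The Kcnab genes encode beta subunits of potassium channels rather than liver enzymes. Kcnab2 gave a log2 fold change of -0.85 (SE 0.28, adjusted p = 0.0709), with INT-767 livers, at most 1.66 CPM, all below vehicle livers from 1.90 to 3.86 CPM. It was called in 3 of 25 alternatives, among them the one without vehicle mouse 1 (-1.07 to -0.55 over all 25). Kcnab1 gave 0.49 (SE 0.30, adjusted p = 0.257). Akr1c18, the 20-alpha-hydroxysteroid dehydrogenase that breaks down progesterone, Akr1c21, Akr1cl and Kcnab3 had too few counts to be tested, with 74, 46, 3 and 43 counts over all 11 libraries.

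By share of the CPM summed over the 20 genes, Akr1c6 made up 40.8% ± 2.4 (SD, n = 7) in vehicle and 35.2% ± 5.5 (SD, n = 4) in INT-767 livers. Akr1d1 took 5.69% ± 0.98 in vehicle and 15.6% ± 4.6 in INT-767 livers. Akr1a1 took 20.2% ± 3.6 and 12.2% ± 3.7. Akr1b7, with the largest fold change, remained a minor transcript at 0.0239% ± 0.0123 in vehicle and 0.227% ± 0.230 in INT-767 livers, and its exon length is among the shortest of the 20 genes.

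Whether the relatives vary together was examined in the 7 vehicle livers, within 1 group, so that the contrast behind the choice of genes does not enter. Across these livers, no correlation of Akr1b7 with any of its 9 relatives passed an exact permutation test (Pearson's r from -0.35 to 0.61, lowest exact p = 0.149, adjusted over 9 exact p = 0.506). The highest was with Akr1c13 (r = 0.61, Spearman's rho = 0.68, exact p = 0.149 and 0.110), and it fell to -0.02 once the 2 livers farthest from the median of Akr1b7 were left out. With 1 to 16 counts of Akr1b7 a library, a relation would have been hard to see at this depth.

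The Akr1c members were tied to each other far more tightly. Their 10 pairs had r from 0.82 to 0.98 with a median of 0.93, and 7 of the 10 passed after adjustment over all 45 pairs of members, a family of pairs chosen after seeing the data (3 of 10 by Spearman's rho). Akr1c6 and Akr1c13 had r = 0.98 and rho = 1.00 (exact permutation p = 0.000198 and 0.000397, adjusted 0.00298 and 0.00595), and r was 0.96 without the 2 livers farthest from the median of Akr1c6. Over the 10 Akr1c pairs, r without such livers ran from 0.55 to 0.97. Vehicle mice 1, 7 and 2 had the highest Akr1c totals (2247, 1794 and 1513 CPM) and mouse 5 the lowest (976 CPM).

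Of the other 35 pairs, 1 passed, Akr1a1 with Akr1b8, in opposite directions (r = -0.97, rho = -0.96, exact permutation p = 0.00179 and 0.00278, adjusted 0.0128 and 0.0312, and r = -0.94 without the 2 farthest livers). All these values share the 7 libraries and their normalisation.

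**Figure D4:**
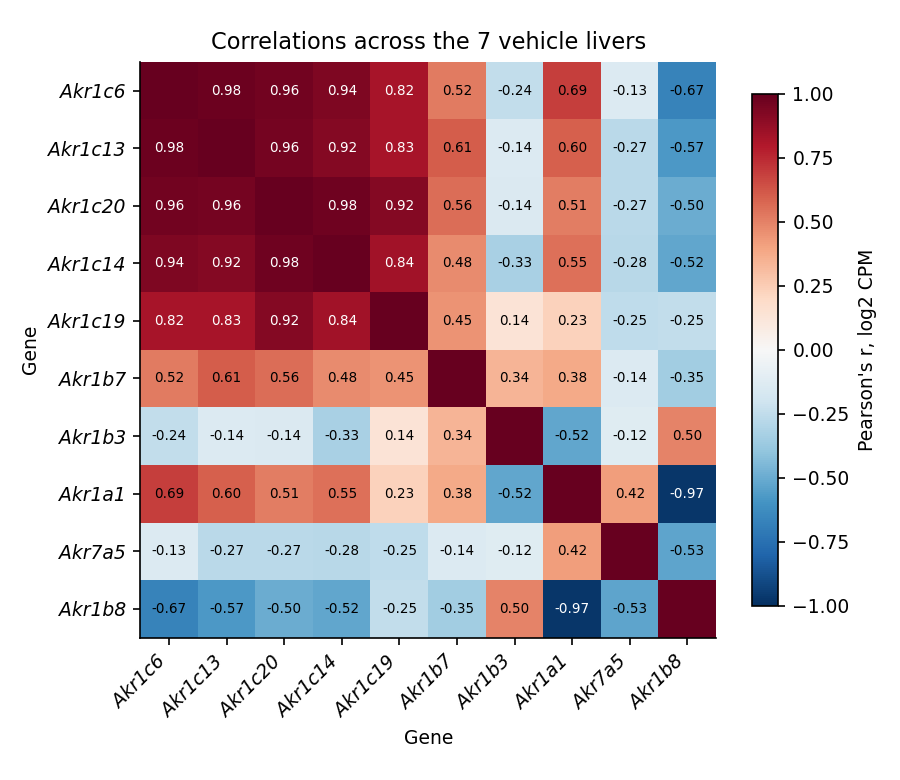
Pearson's r between each pair of the 10 genes on log2 CPM over the 7 vehicle livers, from blue (-1) through white (0) to red (1). The 5 Akr1c genes form a red block with r from 0.82 to 0.98, Akr1b7 is paler against every relative (-0.35 to 0.61), and Akr1a1 with Akr1b8 is the darkest blue at -0.97.

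Genes that FXR is known to act on were used to set the Akr1b7 values beside the drug's best-known liver responses. Slc51b, a basolateral bile acid exporter subunit, gave 0.486, 1.16 and 2.97 CPM as the lowest, median and highest vehicle liver and 12.2, 23.7, 6.04 and 15.8 CPM in INT-767 mice 1 to 4 (log2 fold change 3.43, SE 0.45, edgeR adjusted p = 0.00233). Abcb11, the bile salt export pump, ranged from 184 to 400 CPM in vehicle livers and was at 960, 1123, 524 and 562 CPM in INT-767 mice 1 to 4 (log2 fold change 1.64, SE 0.26, adjusted p = 0.00471). Nr0b2, the repressor SHP, ranged from 9.72 to 26.0 CPM in vehicle livers and was at 49.2, 62.9, 45.1 and 41.1 CPM in INT-767 mice 1 to 4 (log2 fold change 1.54, SE 0.25, adjusted p = 0.00475). All 3 genes were higher in every INT-767 liver. Mice 1 and 2 were highest for Abcb11 and Nr0b2 as for Akr1b7, whereas Slc51b was higher in mouse 4 than in mouse 1.

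**Figure D5:**
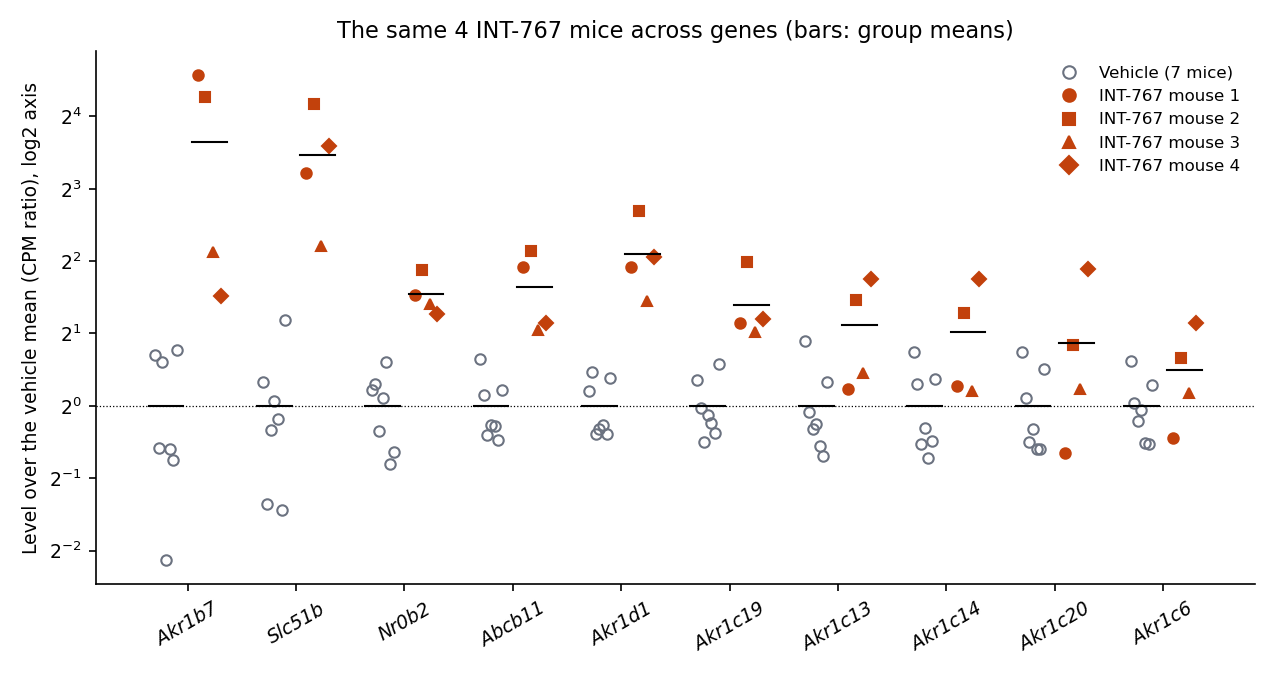
CPM of each liver divided by the vehicle mean of the gene, on a log2 axis, for Akr1b7, 3 known FXR-responsive genes, Akr1d1 and the 5 Akr1c members, with open circles for vehicle mice, filled symbols for INT-767 mice and bars at group means. INT-767 mice 1 and 2 lead for Akr1b7, Abcb11 and Nr0b2, and mouse 4 leads for Akr1c13, Akr1c14, Akr1c20 and Akr1c6.

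Of the receptors themselves, Nr1h4, which encodes FXR, was at 132 ± 18.7 CPM (SD, n = 7) in vehicle and 111 ± 11.1 CPM (SD, n = 4) in INT-767 livers (log2 fold change -0.25, SE 0.14, adjusted p = 0.232). Gpbar1, which encodes TGR5, had 21 counts over all libraries and was not tested. Nr1i2, which encodes the xenobiotic receptor PXR, was higher at 195 ± 38.4 against 137 ± 14.9 CPM (log2 fold change 0.51, SE 0.15, adjusted p = 0.0491), a call that held when vehicle mouse 1, INT-767 mouse 1 or INT-767 mouse 3 was left out and ended without any of the other 8 mice (0.40 to 0.60 over all 11). The other receptors listed were not called. Log2 fold changes were 0.46 (SE 0.27, adjusted p = 0.231) for Nr1i3, 0.39 (SE 0.13, adjusted p = 0.0672) for Nr1h3, -0.06 (SE 0.13, adjusted p = 0.747) for Nr1h2, -0.61 (SE 0.46, adjusted p = 0.345) for Ppara and 0.13 (SE 0.14, adjusted p = 0.523) for Nfe2l2. Nfe2l2 encodes NRF2, the electrophile sensor.

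Over all 11 livers, the genes outside the lists whose log2 CPM was most like that of Akr1b7 included Bdh2 (r = 0.97), Ugt1a9 (0.96), Gm11437 (0.96) and Etnppl (0.96). These values contain the group difference and carry no p. Ugt1a9, a glucuronosyltransferase, was at 4.97 ± 2.15 CPM in vehicle livers and 72.6, 30.5, 16.3 and 13.02 CPM in INT-767 mice 1 to 4, the same order of mice as for Akr1b7. Bdh2, a hydroxybutyrate dehydrogenase, was at 4.41 ± 0.712 CPM in vehicle livers and 21.1, 14.2, 9.56 and 8.30 CPM in INT-767 mice 1 to 4, again in that order. Within the superfamily, r with Akr1b7 over the 11 livers ran from -0.83 for Kcnab2 to 0.87 for Akr1d1, and was 0.85 for Akr1c19 and -0.21 for Akr1b3.

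The pathways that feed these enzymes or compete with them were described from gene lists, chosen with earlier results of these data known. Over all tested genes, 5.04% were called higher and 4.68% lower, and nothing is read from the counts of each list. In the polyol, fructose and glyoxal list, where Akr1b3 makes sorbitol, 3 of 8 tested genes were called higher and 0 lower (median log2 fold change 0.57). Among them were the fructokinase Khk (1.47, SE 0.26, adjusted p = 0.00643) and the glucose transporter Slc2a2 (0.66, SE 0.17, adjusted p = 0.0295). The call of Slc2a2 ended without any of vehicle mice 3 to 6 or INT-767 mice 1 and 2, left out singly (0.56 to 0.76). Sord, which turns sorbitol into fructose, was not called (0.12, SE 0.22, adjusted p = 0.723). In the glucuronate and ascorbate list, where Akr1a1 acts, 1 of 7 tested genes was called higher and 0 lower (median 0.45). It was Cryl1, a gulonate dehydrogenase, at 12.5 ± 1.10 CPM in vehicle and 34.5 ± 4.16 CPM in INT-767 livers (log2 fold change 1.46, SE 0.13, adjusted p = 0.000173).

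Steroid-metabolising enzymes outside the superfamily had 6 of 15 tested genes called higher and 0 lower (median 0.46), against 5.04% and 4.68% of all tested genes. The largest was Hsd17b6, a retinol and hydroxysteroid dehydrogenase, at 133 ± 45.9 CPM in vehicle and 636 ± 227 CPM in INT-767 livers (log2 fold change 2.26, SE 0.28, adjusted p = 0.00162). Srd5a1, the steroid 5-alpha-reductase that acts on the same double bond as Akr1d1, gave 2.00 (SE 0.34, adjusted p = 0.00573). Hsd11b1, which regenerates active glucocorticoid, gave 1.70 (SE 0.27, adjusted p = 0.00471), Hsd3b3 1.47 (SE 0.30, adjusted p = 0.0139) and Hsd3b2 1.12 (SE 0.17, adjusted p = 0.00400), and only the call of Hsd3b3 ended when 1 mouse was left out (INT-767 mouse 2, log2 fold change 1.24). Among other aldehyde and ketone enzymes, 5 of 23 tested were called higher and 0 lower (median 0.17), set beside the same 5.04% and 4.68%. These were Aldh1l1 (1.10, adjusted p = 0.0307), Aldh8a1 (0.89, adjusted p = 0.0401), Adh5 (0.86, adjusted p = 0.0298), Aldh6a1 (0.68, adjusted p = 0.0258) and Aldh9a1 (0.52, adjusted p = 0.0302). Each of these 5 calls ended on leaving out any of 5 to 7 mice singly, always among them vehicle mice 4, 5 and 6 and INT-767 mouse 2, with log2 fold changes from 0.45 (Aldh9a1) to 1.33 (Aldh1l1).

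The electrophile-response list, targets of NRF2, was split in direction, set beside 5.04% of all tested genes called higher and 4.68% lower. Of 10 tested genes, 1 was called higher, Gclm (0.71, SE 0.18, adjusted p = 0.0307), and 2 lower, Hmox1 (-1.21, SE 0.21, adjusted p = 0.00689) and Srxn1 (-0.60, SE 0.13, adjusted p = 0.0193), with a median of 0.01. The call of Srxn1 ended without INT-767 mouse 2 (-0.56), and that of Gclm without any of vehicle mice 3 to 6 or INT-767 mouse 2, left out singly (0.53 to 0.81). Nqo1 was at 22.8 ± 2.79 CPM in vehicle and 24.4 ± 9.21 CPM in INT-767 livers and was not called.

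Markers of the cells in the sample were set beside the family. For comparison with each marker list, 5.04% of all tested genes were called higher and 4.68% lower. Of 8 hepatocyte markers, 1 was called higher, the urea-cycle gene Ass1 (log2 fold change 1.31, SE 0.21, adjusted p = 0.00450), and 0 lower. Their summed level, carried mostly by Alb (42978 CPM in vehicle and 63797 in INT-767 livers on average), ran from 53222 to 69951 CPM in vehicle livers and was 101658, 101617, 84060 and 56327 CPM in INT-767 mice 1 to 4. The INT-767 mice with the most Akr1b7 thus had the highest hepatocyte marker sum, and mouse 4 lay inside the vehicle range. Its part in the Akr1b7 values was not tested.

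Of 6 macrophage markers, 0 were called higher and 2 lower, Cd68 (log2 fold change -1.16, SE 0.22, adjusted p = 0.00944) and Csf1r (-1.14, SE 0.19, adjusted p = 0.00498). Their sum was 496 ± 111 CPM in vehicle and 370 ± 186 CPM in INT-767 livers, with Lyz2 the most abundant. By mouse it was 268, 303, 260 and 647 CPM in INT-767 mice 1 to 4, so that mouse 4, the highest in Akr1c total, was above the vehicle range of 372 to 635 CPM and the other 3 were below it. In mouse 4 the markers went different ways. Its sum came mainly from Lyz2 (398 CPM, inside the vehicle range of 173 to 443) and Clec4f (149 CPM, vehicle 35.2 to 74.3), and Clec4f was not called (log2 fold change 0.53, SE 0.43, adjusted p = 0.384). Cd68 and Csf1r were at most 16.6 and 53.6 CPM in the INT-767 livers, all 4 below the lowest vehicle liver (21.3 and 72.8 CPM). The part of macrophages in the Akr1c values was not tested. Of 6 stellate cell and myofibroblast markers, 2 were called lower, Col1a1 (-2.96, SE 0.74, adjusted p = 0.0297) and Pdgfrb (-1.31, SE 0.33, adjusted p = 0.0302). Both were without a call once any of vehicle mice 3 to 6 or INT-767 mice 2 and 4 was left out (from -3.17 to -2.63 and from -1.49 to -1.12). Col1a1 was the most abundant of the 6 in vehicle livers, and Reln in INT-767 livers (68.9 ± 23.1 against 20.1 ± 11.1 CPM for Col1a1). The sum of the 6 was 353 ± 185 CPM in vehicle and 145 ± 40.2 CPM in INT-767 livers. None of 5 endothelial markers, led by Stab2, was called (sums of 137 ± 41.2 CPM in vehicle and 95.2 ± 22.4 CPM in INT-767 livers). None of 6 cholangiocyte markers, led by Spp1, was called either (1064 ± 465 and 777 ± 428 CPM).

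Spp1, which made up most of the cholangiocyte marker sum, was highest in 3 mice with high Akr1c totals. It was at 1859 CPM in vehicle mouse 1 and 1412 CPM in vehicle mouse 7, which had the highest Akr1c totals of their group, and at 1304 CPM in INT-767 mouse 4, with the highest Akr1c total of all. The other mice did not follow that order, since vehicle mouse 2, whose Akr1c total came after those of mice 1 and 7, had the lowest Spp1 of its group at 683 CPM. INT-767 mouse 2 had less Spp1 than mouse 3 (557 against 748 CPM) and a higher Akr1c total. The other 5 cholangiocyte markers together gave between 51.3 and 91.6 CPM in vehicle livers and 36.4, 31.3, 61.1 and 53.1 CPM in INT-767 mice 1 to 4, where mouse 4 was not the highest. The part of these cells in the Akr1c values was not tested. Ppara was at 62.7 and 92.1 CPM in vehicle mice 1 and 7, the lowest of their group, and at 127, 65.9, 219 and 40.8 CPM in INT-767 mice 1 to 4.

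Tissues known to express Akr1b7 outside the liver were checked by their defining genes. Of 7 adrenal cortex markers, Cyp11b1, Cyp11b2 and Nr5a1 had 0 counts in all 11 libraries. Cyp21a1, the most abundant in vehicle livers, was lower in INT-767 livers (0.451 ± 0.414 against 2.44 ± 1.19 CPM, adjusted p = 0.0376). That call ended without any of vehicle mice 3 to 6 or INT-767 mice 2 and 3, left out singly (log2 fold change -3.41 to -1.89). In INT-767 livers Star was the most abundant, at 1.21 ± 0.705 CPM against 1.91 ± 0.660 CPM in vehicle livers. The adrenal sum was 4.43 ± 1.62 CPM in vehicle and 1.68 ± 0.476 CPM in INT-767 livers. Of 7 small intestine markers, Sis, Alpi, Cdx1 and Cdx2 had 0 counts throughout. The intestinal sum, 172, 420, 253 and 855 CPM in INT-767 mice 1 to 4 and 204 ± 73.6 CPM in vehicle livers, was almost entirely Fabp2 (203 ± 73.8 CPM in vehicle livers). Of 4 white adipocyte markers, Retn had 0 counts, and Cfd was the most abundant in vehicle livers (1.11 ± 0.750 CPM). In INT-767 livers Adipoq was the most abundant, at 0.876 ± 1.66 CPM against 0.675 ± 1.00 CPM for Cfd. Adipoq had 0 counts in vehicle and 46 in INT-767 livers, reached 3.37 CPM in the highest liver, and was not tested. The adipocyte sum was 0.254, 0.552, 0 and 6.88 CPM in INT-767 mice 1 to 4 against 1.15 ± 0.731 CPM in vehicle livers. The part of other tissues in the Akr1b7 values was not tested beyond these levels.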

How the data were processed

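Whole-liver RNA from 11 mice was sequenced by the authors from stranded poly(A) libraries over 75 cycles. Per the labels and the study's methods, reads were aligned with STAR to GRCm38/mm10, and the deposited values are raw counts per Ensembl gene, which the authors did not normalise. The submitters' processing notes name STAR 2.4.0, and the supplementary methods give a later version. The sources used here name neither the counting program nor its strand setting.

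The members and gene lists were chosen with earlier results of these data known. Genes were tested with edgeR 4.0.16 (TMM factors, filterByExpr, robust quasi-likelihood test, R 4.3.3), INT-767 against vehicle, over 13880 genes, with Benjamini-Hochberg adjustment over all of them and a threshold of 0.05. CPM values use TMM factors, and log2 CPM a prior count of 2. On simulated data for this comparison, 89.5% of 200 genes changed by a log2 size of 2 were recovered and 7 other genes were called, over 13880 genes. No pair of libraries was identical, and the closest pair differed by a median chi-square per gene of 1.10, where 2 draws of 1 library give 0.455. Mice are numbered in the labels, and nothing states that they are litters or cages. The edgeR p-values judge the group difference against the spread between these mice. The exact p-values come from sign flips or permutations over the 7 vehicle livers.

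The genes named were the 10 members, every listed superfamily gene, up to 5 called genes per list, all receptors and known FXR-responsive genes, the most abundant gene of each marker list, and the 5 genes outside the lists with the highest r with Akr1b7, of which some are not reported here. A few others (Sord, Nqo1, Gpbar1 and zero-count markers) were added after their values were seen. Genes were matched by identifier to GENCODE M21 (46005 of 46603), which gives exon lengths and coding sequences. Promoters are from RefSeq (GRCm38.p6), with 8 of 10 members matched. Alternatives were other scalings, filters, tools and thresholds, a replicate block, thinning to the smallest library, and leaving out each mouse.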

Additional observations from a re-analysis of the deposited data

Results flagged for a closer look

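Among 32 groups of values (16 tested superfamily genes in 2 groups), 1 held a mouse far from the rest of its group by Dixon's criterion, where chance gives about 5% of groups. Akr1c19 in INT-767 mouse 2 was at 190 CPM, and the nearest of the other 3 INT-767 mice was at 110 CPM.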

How the results depend on the processing

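The 700 genes called higher and 649 lower became 332 and 1026 with library size only (which moved the median log2 fold change of all genes from -0.01 to -0.22, so changes are relative to it), 1443 and 1368 with DESeq2, 1658 and 1219 with limma-voom and sample weights, and 158 and 87 at an adjusted p under 0.01. After seeing the data, 1073 were called higher with a GC content and length offset, and 32 and 18 were called higher and lower without INT-767 mice 1 and 2. The cause was not tested. Leaving out 1 mouse gave 164 (without INT-767 mouse 2) to 1906 (without vehicle mouse 1) higher and 110 to 1370 lower, from the same mice.

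Akr1b7 and Akr1c19 were called under every scaling, tool, threshold and single omission run, except that Akr1b7 had too few counts to be tested under a filter of 10 counts in every mouse (1 member called). All these runs reuse the contrast on which the genes were chosen, so they describe the fits and add no evidence. Members called higher were 4 with DESeq2 and with sample weights, 3 with the GC content and length offset, from 2 to 4 on leaving out 1 mouse, and 0 without INT-767 mice 1 and 2. Akr1b7 less the median of its 9 relatives was 1.07 without INT-767 mice 1 and 2, and 2.37 to 3.76 on leaving out 1 mouse (lowest without INT-767 mouse 1, highest without mouse 4).

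Labels number the mice in both groups, but same-numbered mice did not deviate together (correlations of -0.69, 0.22, 0.15 and -0.48 for numbers 1 to 4). With a replicate block over those 8 mice, 0 genes were called higher, 0 lower and 0 members by edgeR (1345 genes at an unadjusted p under 0.05). Without the block, the same 8 mice gave 14, 10 and 0.

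Some values near 0 changed sign. Akr7a5 was at -0.20 with library size only, -0.066 with upper-quartile factors, -0.050 with at least 10 counts in every mouse, -0.047 with the replicate block, -0.053 for the same 8 mice without it, -0.088 with the GC content and length offset, and -0.078 to 0.079 on leaving out 1 mouse. Akr1c6 was at -0.069 with that offset, Nfe2l2 at -0.094 with library size only, and Nr1h2 at 0.062 without INT-767 mice 1 and 2 and -0.14 to 0.033 on leaving out 1 mouse. Between 6 and 8 of 9 neighbours in level were separated in vehicle livers (7 in the order given), where Akr7a5 lay above Akr1c14 with the longest transcript as length and Akr1b3 above Akr1b8 with CPM alone. Akr1b7 had 0 correlated relatives in every alternative run. At 1 to 16 counts a vehicle library, depth limits the fold change of Akr1b7.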
